A study of Mus musculus with 4 samples.

Results

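Mechanosensitive ion channels open when the membrane around them is stretched, sheared or indented, and 7 genes of this kind were measured here: Piezo1, Piezo2, Trpv4, Trpv2, Trpc6, Tmem63a and Tmem63b. They were taken by gene symbol from the 32285 genes of a single-cell RNA-sequencing (scRNA-Seq) dataset of mouse lung, and all 7 were found. For each of them, unique molecular identifiers (UMIs, 1 for each captured transcript) were summed over the cells of a library and over the cells of each class defined by marker genes.

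Piezo1 and Piezo2 are large channels that assemble as trimers, let calcium and other cations into the cell, and open directly in response to membrane tension. Piezo1 is known from endothelial cells that sense blood flow and from red blood cells, and Piezo2 from sensory neurons of touch and of lung inflation. Trpv4, Trpv2 and Trpc6 belong to the transient receptor potential family of calcium-permeable channels, which respond to stretch, swelling, heat or lipid signals. Tmem63a and Tmem63b belong to the OSCA/TMEM63 family, whose members open at high membrane tension.

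The question behind the comparisons was how the lung cells of young and aged mice respond to mechanical ventilation. Cells of the left lung lobe came from male C57BL/6 mice of 2 to 3 months (young) or 22 months (aged). The mice were either nonventilated and naive or ventilated for 3 hours at a high tidal volume. Mice aged for the study were kept on a food-restricted diet, so differences between the ages may include diet. Ventilation came with anesthesia, analgesia and oxygen, so that every difference between ventilated and nonventilated libraries includes these. Each of the 4 groups was 1 library of cells pooled from 3 mice. There were therefore no replicates, no test was run, and no difference given here has a replicate check.

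After filtering, 9514 of the 15428 barcodes were retained, between 1960 and 2750 per library, with 17736722 to 22711057 UMIs of the 40655452 to 45218176 in all barcodes of a library. A retained cell held a median of 7236.5 to 8370.5 UMIs. Clustering gave 18 clusters, of which 16 were named from their markers and are called "-like" here. Barcodes shared between libraries numbered 0 to 7 for each pair. Levels are given as UMIs per 1000000 UMIs of the same class and library (CPM), and ratios as one level over another. Where 4 values stand in a row, they belong to the young nonventilated, young ventilated, then aged nonventilated, aged ventilated libraries. The 95% intervals cover no more than counting error and are exact: Poisson intervals for levels, conditional binomial intervals for ratios and Clopper-Pearson intervals for shares. A gene was called higher or lower where its ratio was at least 1.5-fold away from 1 and at least 1 of the compared sums held 20 UMIs.

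The 7 genes lie on 7 chromosomes (GRCm38, GENCODE annotation). Piezo1 spans positions 122481698 to 122551329 of chromosome 8 on the minus strand. Trpv4 lies at 114622152 to 114658421 of chromosome 5 on the minus strand, and Trpv2 at 62574486 to 62600515 of chromosome 11 on the plus strand. Trpc6 covers 8544142 to 8680741 of chromosome 9 on the plus strand. Tmem63a lies at 180942344 to 180975112 of chromosome 1 on the plus strand, and Tmem63b at 45660171 to 45686905 of chromosome 17 on the minus strand. Exons make up 14.3% of the 69.6 kb of Piezo1 and 3.71% of the 136.6 kb of Trpc6, and the version of Cell Ranger used counts intronic reads by default, so a long gene can gain UMIs that a short one cannot. The level of each gene is therefore compared here across cells, and not with the level of another gene. Piezo1 shares its strand with an overlapping gene, Gm26497, and Piezo2 with AC132378.1, so some reads could not be given to either gene alone. Piezo1, Piezo2, Trpc6, Tmem63a and Tmem63b also overlap genes on the other strand.

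The promoter sequences of 3 of the genes are shown because these genes had the most different patterns over cell classes: Piezo1 was spread over many classes, Trpc6 was held by a single class, and Trpv2 was found mainly in leukocytes. Each is the RefSeq window from 250 bases before to 50 bases after a transcription start (GRCm38.p6), printed 5′ to 3′ on the strand of the gene, with every CG dinucleotide in capitals.
Piezo1, chr8:122551280-122551579, minus strand: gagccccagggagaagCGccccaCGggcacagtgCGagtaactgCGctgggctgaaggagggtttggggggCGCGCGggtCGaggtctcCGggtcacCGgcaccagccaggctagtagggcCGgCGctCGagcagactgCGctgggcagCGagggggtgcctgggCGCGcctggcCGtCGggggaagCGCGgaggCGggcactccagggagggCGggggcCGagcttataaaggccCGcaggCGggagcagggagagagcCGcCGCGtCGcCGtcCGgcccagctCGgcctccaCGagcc
Trpc6, chr9:8543892-8544191, plus strand: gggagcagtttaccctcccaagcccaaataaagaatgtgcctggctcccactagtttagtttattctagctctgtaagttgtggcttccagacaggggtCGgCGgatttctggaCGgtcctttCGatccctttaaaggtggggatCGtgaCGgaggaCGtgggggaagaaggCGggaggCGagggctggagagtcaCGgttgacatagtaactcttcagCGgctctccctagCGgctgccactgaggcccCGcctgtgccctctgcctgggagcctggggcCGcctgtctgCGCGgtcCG
Trpv2, chr11:62574236-62574535, plus strand: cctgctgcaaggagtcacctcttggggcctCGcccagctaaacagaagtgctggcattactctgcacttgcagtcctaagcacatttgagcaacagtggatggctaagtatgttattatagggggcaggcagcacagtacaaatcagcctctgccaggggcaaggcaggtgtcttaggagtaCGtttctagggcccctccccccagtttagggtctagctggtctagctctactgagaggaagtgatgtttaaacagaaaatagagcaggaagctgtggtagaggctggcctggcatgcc
The Piezo1 window holds 34 CG dinucleotides, against a median of 7 over 32851 windows of the same length, and 7.73% of all windows hold as many or more. The Trpc6 window holds 17, which 31.4% of windows reach. The Trpv2 window shown, the first of 3 RefSeq windows for this gene, holds 2, which 85.9% of windows reach, and the other two hold 2 and 7, the latter reached by 52.1%. Of the windows not shown, Tmem63b has 34, Tmem63a 33 and Trpv4 30, so these 3 genes are closer to Piezo1 than to any Trpv2 window. These counts describe the letters only.

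Each channel had its own set of cells. Piezo2 was highest in the capillary endothelial classes, Trpc6 in smooth muscle or pericyte-like cells, Trpv2 in alveolar macrophage-like cells and Tmem63b in alveolar type I-like cells. Piezo1 had no single class: it was at 79.6 to 234.6 CPM in 9 of the 16 classes, and each of these overlapped with its neighbour in the order of levels when the range over libraries was taken. Neutrophil-like cells were the lowest for Piezo1, with 6.93 CPM. The class of highest level was the same for all 7 genes under each alternative processing run here, except that Tmem63a was highest in general capillary-like cells, not in lymphatic endothelial-like cells, once the single cell with most of its UMIs was left out.

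**Figure D1:**
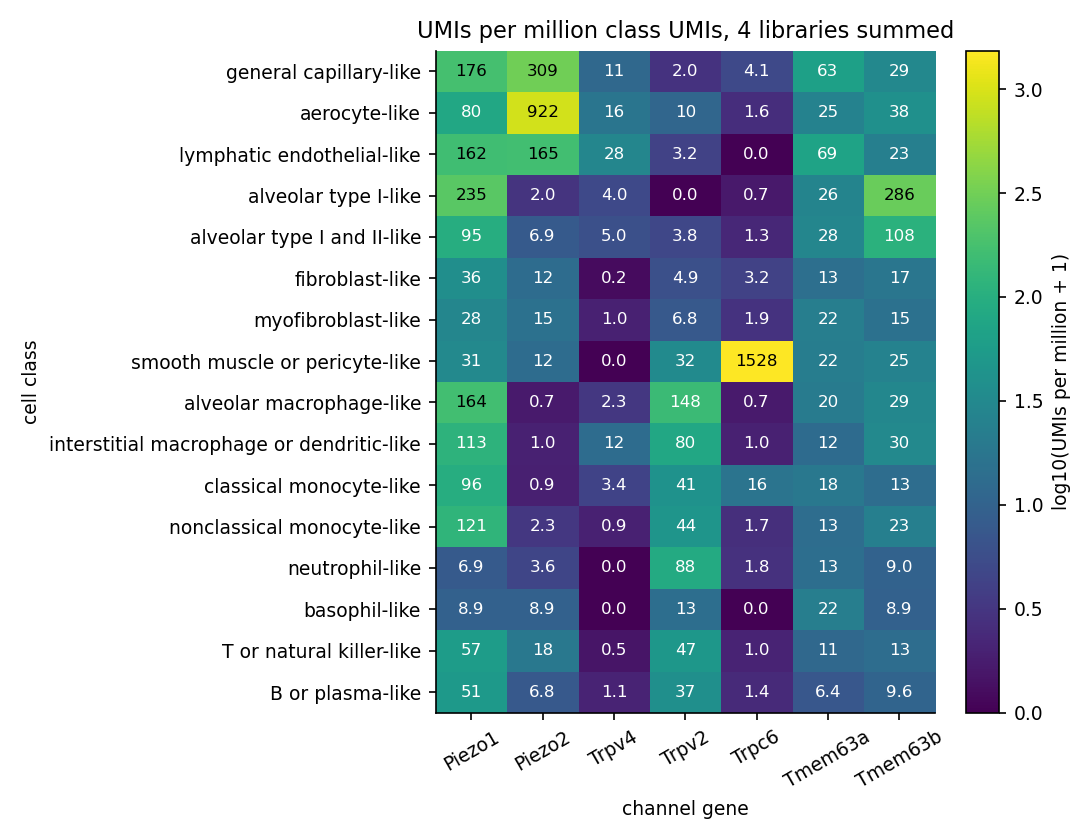
Levels of the 7 channel genes (columns) in the 16 named cell classes (rows), all 4 libraries summed, with the level in UMIs per 1000000 class UMIs printed in each cell and the color on a log10 scale. Trpc6 reaches 1528 CPM in smooth muscle or pericyte-like cells and at most 16.0 CPM elsewhere, while Piezo1 is at 79.6 CPM or more in 9 classes.

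Over all retained cells of a library, the levels mix what cells were captured with what each cell held, and fewer cells of a type cannot be told apart from less RNA per cell. Piezo1 was at 91.3, 102.9, 126.7 and 78.3 CPM in the 4 libraries. The aged libraries were thus both the highest and the lowest. The ventilated-to-nonventilated ratio of Piezo1 was 1.13 (95% interval 1.06 to 1.20) in young and 0.618 (0.579 to 0.659) in aged mice. Piezo2 was lower after ventilation at both ages, at 173.7 and 116.2 CPM in young and 123.9 and 96.4 CPM in aged mice. Trpc6 stood between 77.7 and 96.6 CPM, Trpv2 between 23.5 and 33.9, Tmem63a between 25.5 and 30.0, Tmem63b between 20.4 and 36.3, and Trpv4 between 4.01 and 6.19. When every library was given the same class makeup, Piezo1 was at 88.5, 104, 123 and 83.1 CPM in the same order, and the order of the libraries was the same as captured. Between the highest and lowest library, 4 channels differed by 1.5-fold or more as captured: Piezo1, Piezo2, Trpv4 and Tmem63b. With the same makeup there were 3: Piezo2, Trpc6 and Tmem63b. Piezo1 then fell short of 1.5-fold.

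Counted over pairs of a channel and a class, 10 of 45 pairs (22.2%) were called higher after ventilation in young mice and 6 (13.3%) lower. Over all genes, 17.2% of such pairs were called higher and 26.8% lower. In aged mice, 1 of 47 pairs (2.13%) was called higher and 18 (38.3%) lower, against 14.2% and 22.7% over all genes. With age, without ventilation, 9 of 43 pairs (20.9%) were called higher and 4 (9.3%) lower, against 9.87% and 9.24% over all genes. With age, after ventilation, 3 of 49 pairs (6.12%) were called higher and 14 (28.6%) lower, against 12.6% and 12.3% over all genes. The comparisons share libraries, and the pairs of a gene share cells, so these shares are descriptions. Classes with fewer cells hold fewer channels with 20 UMIs, and a ratio between small sums can pass 1.5-fold by counting error alone.

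Piezo2 was a gene of endothelial cells in this tissue. It spans positions 63010213 to 63387183 of chromosome 18 on the minus strand, 377 kb of which 4.55% is exonic. Aerocyte-like cells, the capillary cells that line the gas exchange surface, held 36.8% of its UMIs, and general capillary-like cells, the other capillary type, held 56.9%. Summed over the libraries, its level was 921.9 CPM in aerocyte-like, 309 CPM in general capillary-like and 165 CPM in lymphatic endothelial-like cells, and the ranges over libraries of these 3 classes did not overlap. The next class, T or natural killer-like cells, had 17.8 CPM. Endothelial cells of veins, separated at a finer clustering, stood at 222, 149, 202 and 157 CPM.

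In aerocyte-like cells, Piezo2 was at 1261 CPM (95% interval 1203 to 1320; 1798 UMIs) in the young nonventilated library and 592.2 CPM (548 to 639; 663 UMIs) in the young ventilated library. In the aged nonventilated library it was at 1149 CPM (1079 to 1222; 1005 UMIs), and in the aged ventilated library at 576.5 CPM (528 to 628; 521 UMIs). Both ventilated libraries were below both nonventilated libraries, and the intervals of the ventilated and nonventilated libraries did not overlap. The ventilated-to-nonventilated ratio was 0.470 (0.429 to 0.514) in young and 0.502 (0.451 to 0.559) in aged mice. The ratio stayed past 1.5-fold in 13 of 13 alternatives at each age. The median gene of the class was also lower after ventilation, by 0.32 and 0.14 on the log2 scale in young and aged mice, and relative to it Piezo2 was at −0.77 and −0.86. The summed markers of aerocytes, 8 genes, moved the same way, with 5913, 3363, 5257 and 4218 CPM, while the median UMIs per cell were 8905, 8672.5, 9071 and 9951. Their part in the difference was not tested.

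General capillary-like cells gave another picture for the same gene. Piezo2 was at 333, 323, 295 and 277 CPM in the 4 libraries, each with at least 1113 UMIs. The ventilated-to-nonventilated ratio was 0.971 (0.909 to 1.04) in young and 0.939 (0.869 to 1.02) in aged mice, and both intervals hold 1. With age, the level was lower by a ratio of 0.885 (0.826 to 0.948) without ventilation and 0.856 (0.794 to 0.923) with it. This class also holds venous cells, and no cluster was named arterial at either resolution. Its nonventilated and ventilated cells fell mostly into different clusters at the finer resolution. In lymphatic endothelial-like cells, Piezo2 was at 168, 109, 243 and 147 CPM, from 27 to 53 UMIs, with ratios of 0.649 (0.392 to 1.06) and 0.607 (0.367 to 0.982) after ventilation.

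The share of cells in which Piezo2 was seen showed the same difference in aerocyte-like cells. With every cell thinned to 2000 UMIs, Piezo2 was found in 87.9% (131 of 149) of aerocyte-like cells of the young nonventilated library and 52.4% (65 of 124) of the young ventilated library. In aged mice the shares were 87.2% (75 of 86) and 61.2% (52 of 85). In general capillary-like cells the 4 shares were 40.4%, 39.7%, 41.8% and 34.5%. Without thinning, 98.0%, 95.2%, 100% and 90.6% of aerocyte-like cells had a Piezo2 UMI, so nearly every cell of the class held the transcript in all 4 libraries. As a background level, 0 of 302 interstitial macrophage or dendritic-like cells had a UMI at this depth, where 3 cells, the limit taken here for a count of 0, would be a share of 0.993%.

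**Figure D2:**
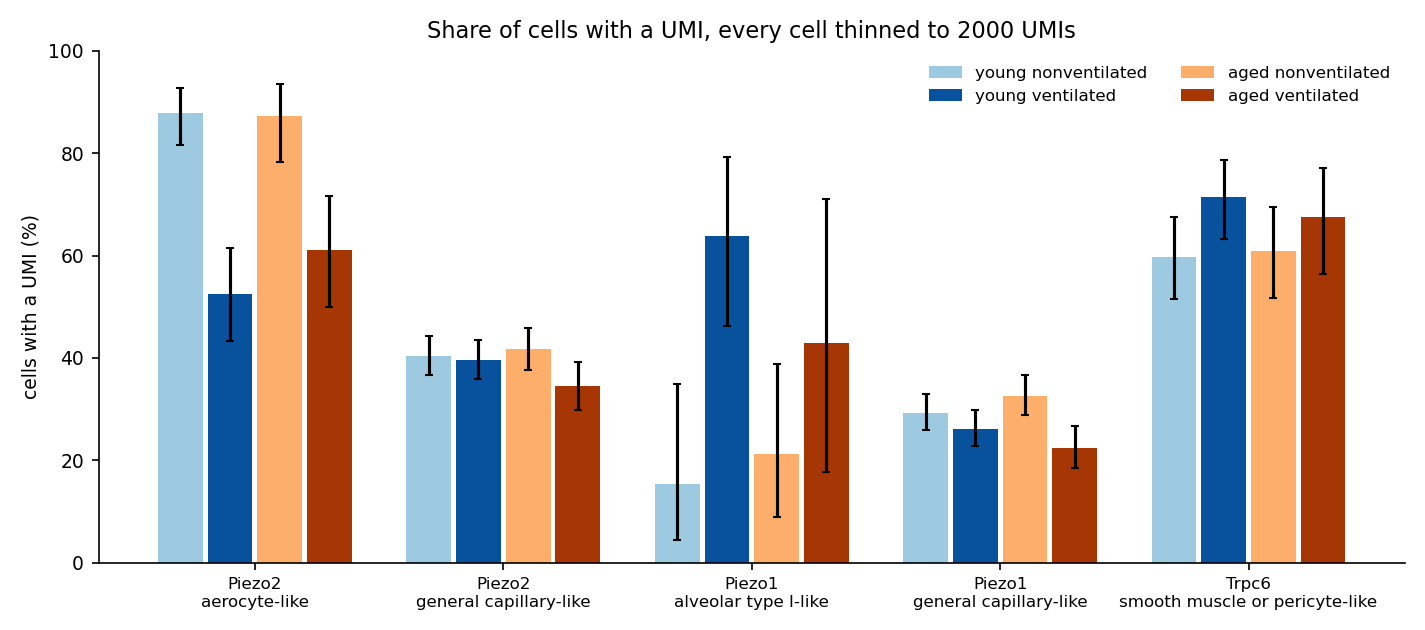
Share of cells with at least 1 UMI (y axis, %) after every cell was thinned to 2000 UMIs, for 5 pairs of a channel and a class, with 1 bar per library and exact 95% binomial intervals. Piezo2 in aerocyte-like cells stands at 87.9% and 87.2% without ventilation and 52.4% and 61.2% with it, and Piezo1 in alveolar type I-like cells at 15.4% and 21.2% without and 63.9% and 42.9% with it.

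Piezo2 was also seen at a low level in fibroblast-like cells, where it differed with age rather than with ventilation. It was at 17.0 CPM in both young libraries (83 and 99 UMIs), and at 5.44 and 5.77 CPM in aged mice without and with ventilation (22 and 17 UMIs). The aged-to-young ratio was 0.321 (0.191 to 0.518) without ventilation and 0.339 (0.190 to 0.571) with it. The young and aged libraries did not overlap. Without ventilation this ratio was past 1.5-fold in 13 of 13 alternatives, and after ventilation in 11.

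Piezo1, the flow and stretch sensor found in most classes, was highest over the summed libraries in alveolar type I-like cells, the flat cells that line the alveolus. The level there was 95.8 CPM (66.4 to 134; 34 UMIs) in the young nonventilated library and 438.8 CPM (382 to 502; 215 UMIs) in the young ventilated library. In aged mice it was 136.5 CPM (63 UMIs) without and 204.4 CPM (38 UMIs) with ventilation. The young ventilated library stood above the other 3, whose levels were closer to each other. Without ventilation, general capillary-like cells had the higher level at both ages. The medians over libraries were 168.3 CPM in general capillary-like and 170.5 CPM in alveolar type I-like cells. The ratio after ventilation was 4.58 (3.18 to 6.79) in young mice and 1.50 (0.974 to 2.27) in aged mice, where the interval holds 1. Over the alternatives, the log2 ratio lay between 1.72 and 2.34 in young mice and between 0.38 and 1.39 in aged mice. The class was small, with 26, 36, 33 and 14 cells, of which 17, 33, 27 and 13 had a Piezo1 UMI. No single cell held more than 20 of the 215 UMIs of the young ventilated library. The median UMIs per cell were 14289.5, 13893.5, 14355 and 13559, so depth per cell was alike. Markers of mesothelial cells summed to 350, 1549, 470 and 1124 CPM in this class, with 5 of the 8 markers at 0 in all libraries, and moved with ventilation as Piezo1 did. Piezo1 stood at 139 CPM in the mesothelial-like cells of the finer clustering. The part of these markers in the difference was not tested.

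In the capillary endothelial classes, Piezo1 was lower after ventilation. General capillary-like cells held 41.5% of all its UMIs and had 182.3, 148.5, 216.8 and 154.4 CPM in the 4 libraries. The ratio was 0.815 (0.741 to 0.895) in young and 0.712 (0.645 to 0.786) in aged mice, short of 1.5-fold at both ages. The median gene of this class had log2 ratios of −0.29 and −0.15, close to the −0.30 of Piezo1 in young mice and above its −0.49 in aged mice. Aerocyte-like cells had 76.4, 52.7, 126 and 73.0 CPM, and ratios of 0.690 (0.494 to 0.955) and 0.581 (0.422 to 0.795). Piezo1 and Piezo2 thus had the same direction in aerocyte-like cells at both ages.

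In the macrophage classes, Piezo1 had ratios on opposite sides of 1 at the 2 ages. Alveolar macrophage-like cells, the resident phagocytes of the air space, had 134.3, 202, 185.4 and 117.3 CPM. The ratio after ventilation was 1.50 (1.23 to 1.85) in young and 0.633 (0.487 to 0.815) in aged mice. It was past 1.5-fold in 9 of 13 alternatives at each age, and the log2 ratios after thinning to 2000 UMIs were 0.19 and −0.14. Markers of aerocytes in this class summed to 234.7, 1459, 307.3 and 426.4 CPM, highest in the young ventilated library like Piezo1, and their part was not tested. Interstitial macrophage or dendritic-like cells had 78.6, 152.2, 135.3 and 81.7 CPM, with ratios of 1.94 (1.49 to 2.54) and 0.604 (0.446 to 0.809). In both classes the young ventilated and aged nonventilated libraries were the high ones. In the second class the dendritic markers summed to 1262, 2704, 2183 and 1321 CPM and the interstitial macrophage markers to 10358, 7621, 6353 and 13448 CPM, so the mix of cells moved with Piezo1, and its part was not tested. After thinning to 2000 UMIs, 16.7%, 17.1%, 20.9% and 19.3% of these cells had a Piezo1 UMI, and the log2 ratios were 0.44 in young and 0.01 in aged mice.

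In monocytes, the circulating precursors of macrophages, the young ratios depended on the clustering. Nonclassical monocyte-like cells had 110.7, 97.3, 155.1 and 84.6 CPM of Piezo1, with ratios of 0.879 (0.722 to 1.07) in young and 0.546 (0.458 to 0.647) in aged mice. At the finer clustering the young ratio was 0.634 (0.512 to 0.784), past 1.5-fold. Classical monocyte markers summed to 2611, 608.9, 1258 and 679.4 CPM in the class of the main clustering, and their part was not tested. Classical monocyte-like cells numbered 4 in the young nonventilated library, so no young ratio was taken. A further classical monocyte-like cluster of 94, 0, 83 and 1 cells appeared at the finer clustering, where the class had 71.9, 132.7, 102.3 and 58.8 CPM, with ratios of 1.85 (1.45 to 2.36) in young and 0.575 (0.436 to 0.757) in aged mice. In aged mice the ratio of the main clustering was 0.382 (0.234 to 0.652), from 20 UMIs in 31 cells without ventilation and 97 UMIs in 112 cells with it. These cells held a median of 4412 and 16226 UMIs, 7.13% and 2.39% mitochondrial UMIs, and 2169 and 7328 CPM of classical monocyte markers without and with ventilation. With at most 5% mitochondrial UMIs the log2 ratio was −0.51, against −1.45, and the part of depth and RNA quality was not tested. B or plasma-like cells had 50.4, 62.6, 62.4 and 36.1 CPM and an aged ratio of 0.579 (0.359 to 0.918).

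Mesenchymal classes of the main clustering held less Piezo1, and the young ratios after ventilation were above 1 in fibroblast-like and in smooth muscle or pericyte-like cells. Fibroblast-like cells had 28.6, 49.8, 32.2 and 26.5 CPM, with ratios of 1.74 (1.42 to 2.14) in young and 0.823 (0.614 to 1.10) in aged mice. The markers of alveolar fibroblasts in this class summed to 11529, 4014, 10972 and 5666 CPM, lower after ventilation at both ages, and those of myofibroblasts to 109.3, 1294, 109.8 and 128.2 CPM, high in the young ventilated library alone. Their part was not tested. Alveolar fibroblast-like cells of the finer clustering had a young log2 ratio of −0.29, from 93 UMIs without and 2 UMIs with ventilation. Adventitial fibroblast-like cells of the finer clustering had 67.1, 142, 46.4 and 76.7 CPM. Smooth muscle or pericyte-like cells had 18.0, 41.0, 33.0 and 36.4 CPM from 26 to 45 UMIs, and ratios of 2.28 (1.38 to 3.85) and 1.10 (0.659 to 1.82). When each cell was given the same weight, the young log2 ratio of this class was 0.42, short of 1.5-fold. In the finer clustering the young log2 ratio was −0.11 in pericyte-like cells, from 21 and 23 UMIs, and 2.89 in smooth muscle-like cells, from 5 and 22 UMIs. Erythroid markers summed to 3.45, 2254, 5.78 and 0 CPM in the joint class, high in the young ventilated library alone, and red blood cells are known to hold Piezo1. Their part was not tested.

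Set side by side, the ratio of Piezo1 after ventilation was lower in aged than in young mice in 11 of the 11 classes with 20 UMIs at both ages. At the finer clustering the difference was the other way in venous endothelial-like and pericyte-like cells, where the aged minus young difference of the log2 ratio was 0.44 and 0.14 with intervals that hold 0. Over all genes, in the main clustering, the aged ratio was the lower one for 46.6% of 81067 pairs of a gene and a class. Among the other channels, the aged ratio was the lower one in 8 of 9 classes for Tmem63b and in the single class of Trpc6. It was the lower one in 3 of 6 classes for Tmem63a, 2 of 4 for Piezo2, 1 of 2 for Trpv4 and 2 of 8 for Trpv2. In aged mice, Piezo1 was lower after ventilation in 11 of 13 classes, and 6 were past 1.5-fold. In young mice it was higher in 7 of 11 classes, and 5 were past 1.5-fold. The difference between the ages was not tested, since each group is a single library.

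**Figure D3:**
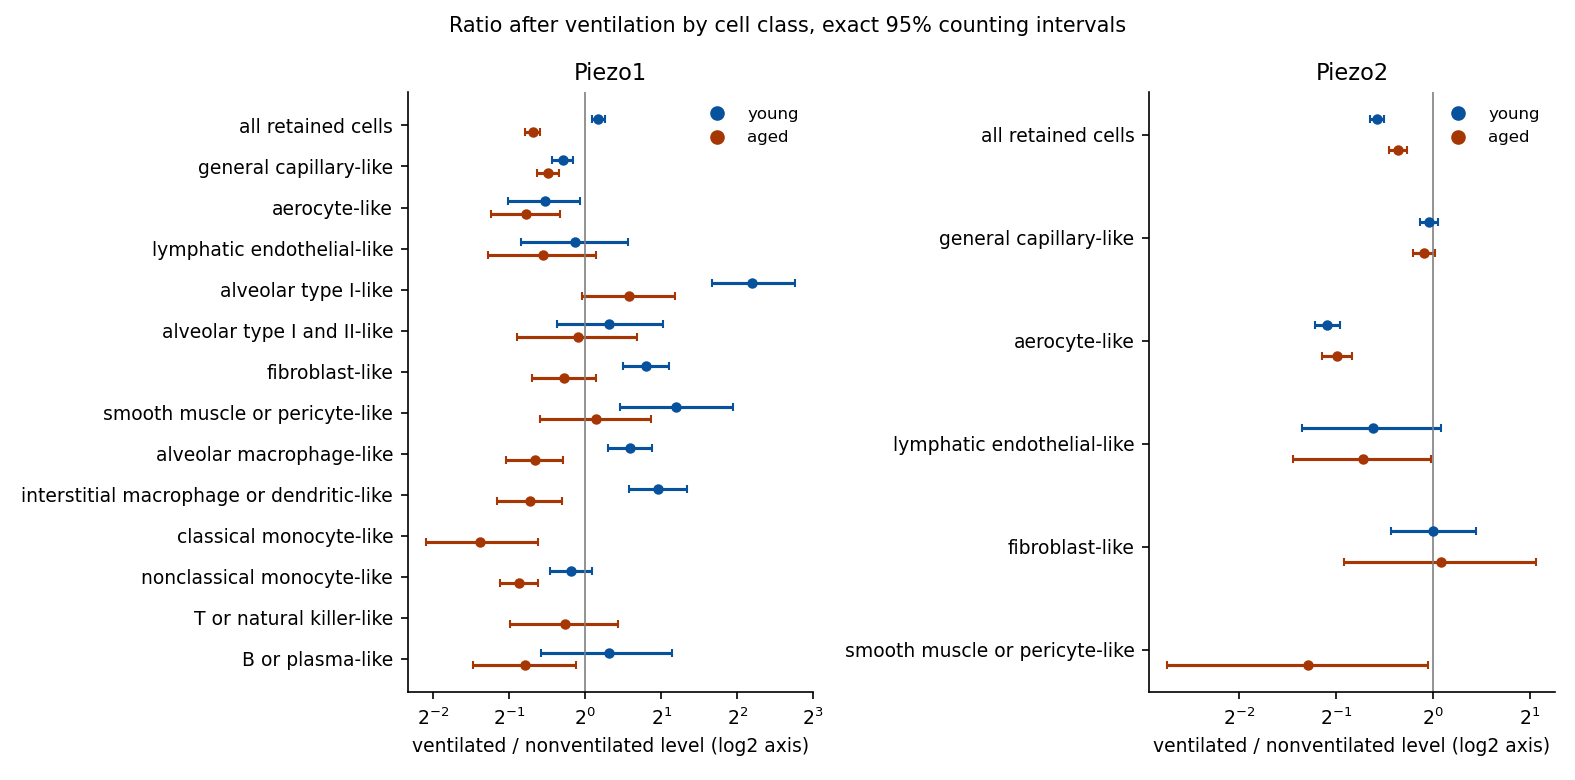
Ventilated-to-nonventilated ratio (x axis, log2 scale) of Piezo1 and Piezo2 by cell class (y axis), with young mice in blue, aged mice in red and exact 95% counting intervals. For Piezo1 the aged point lies to the left of the young point in all 11 classes of the main clustering with both, and for Piezo2 the points lie at 0.470 and 0.502 in aerocyte-like cells and at 0.971 and 0.939 in general capillary-like cells.

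The nonventilated libraries already differed for Piezo1. Its level was higher in the aged than in the young nonventilated library in 12 of 12 classes, with log2 ratios from 0.03 to 0.86 and 5 past 1.5-fold. The ratio was 1.65 (1.25 to 2.16) in aerocyte-like cells, 1.72 (1.32 to 2.25) in interstitial macrophage or dendritic-like cells and 1.19 (1.09 to 1.30) in general capillary-like cells. Of 1729 genes with 20 UMIs in all 12 classes, 4 (0.231%) were higher in all 12, with Piezo1 itself counted among them. The 12 classes are those in which Piezo1 had 20 UMIs, so this share is a description. Subtracting the lowest class level of each library left it higher in 9 of 12 classes, and thinning in 4 of 7. In neutrophil-like cells, which held 2, 3, 6 and 12 Piezo1 UMIs, the levels were 3.63, 2.70, 24.6 and 8.48 CPM, so the aged nonventilated library was high there too. This high level enters both the aged ratio after ventilation and the ratio of aged to young, as these share that library.

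Trpc6, a calcium-permeable channel that opens with diacylglycerol and is known from smooth muscle and from podocytes of the kidney, was nearly confined to mural cells. Smooth muscle or pericyte-like cells held 96.6% of its UMIs. The levels were 1209, 1851, 1505 and 1700 CPM, lowest without ventilation in young mice. The ratio after ventilation was 1.53 (1.44 to 1.63) in young and 1.13 (1.05 to 1.21) in aged mice. The finer clustering separated pericytes, which wrap capillaries, from smooth muscle cells. Pericyte-like cells had 2473, 2759, 3066 and 2711 CPM, with ratios of 1.12 and 0.884. Smooth muscle-like cells had 480, 654, 293 and 642 CPM, with ratios of 1.36 and 2.19. The joint class held 93, 112, 81 and 66 pericyte-like and 87, 50, 58 and 40 smooth muscle-like cells, so the share of pericytes was higher in the ventilated libraries. Smooth muscle markers summed to 16889, 9486, 15395 and 11178 CPM in the joint class. The part of this mix in the ratio of 1.53 was not tested.

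Outside mural cells, some of the few Trpc6 UMIs came from single cells. In the classical monocyte-like cells of the young ventilated library, 48 of 52 UMIs were in 1 cell, which also held 20 UMIs of mural markers, against a median of 0 in the other cells. In the fibroblast-like cells of that library, 35 of 41 UMIs were in 1 cell with 24 mural marker UMIs. In its general capillary-like cells, 16 of 51 UMIs were in 1 cell with 16 mural marker UMIs. In fibroblast-like cells, the log2 ratio after ventilation in young mice was 2.14 with all cells and −0.25 without the top cell of each library.

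**Figure D4:**
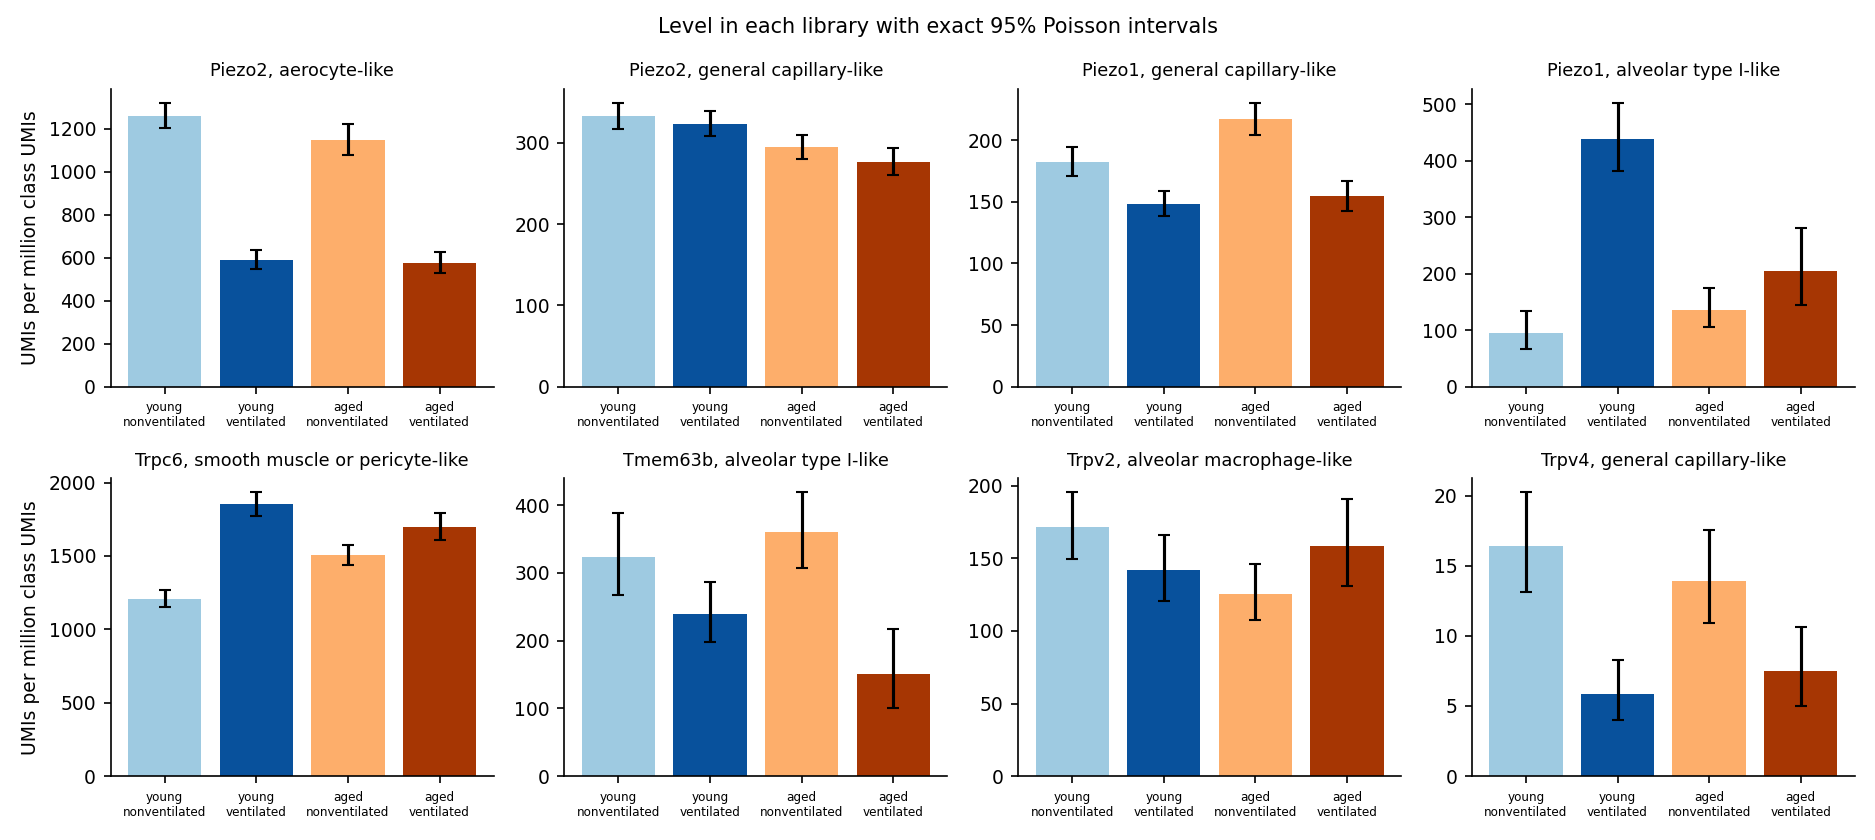
Level (y axis, UMIs per 1000000 class UMIs, starting at 0) of 6 channels in 8 pairs of a channel and a class, with 1 bar per library and exact 95% Poisson intervals. Piezo2 in aerocyte-like cells stands at 1261 and 1149 CPM without and 592.2 and 576.5 CPM with ventilation, while Piezo1 in alveolar type I-like cells is highest in the young ventilated library, at 438.8 CPM.

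Trpv2, a channel of the vanilloid subfamily known from macrophages and other leukocytes, was found in immune cells. Alveolar macrophage-like cells held 27.1% of its UMIs and had 171.4, 142.1, 125.6 and 158.8 CPM. The ratio after ventilation was 0.829 (0.670 to 1.02) in young and 1.27 (0.987 to 1.62) in aged mice, and both intervals hold 1. Without ventilation the aged-to-young ratio was 0.733 (0.596 to 0.899). Neutrophil-like cells had 103.3, 71.2, 82.1 and 96.8 CPM, with ratios of 0.689 (0.484 to 0.986) and 1.18 (0.735 to 1.99). Interstitial macrophage or dendritic-like cells had 69.2, 80.5, 93.01 and 76.7 CPM. T or natural killer-like, nonclassical monocyte-like, classical monocyte-like and B or plasma-like cells stood at 47.2, 44.3, 41.2 and 37.4 CPM over all libraries, and their ranges over libraries overlapped.

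Smooth muscle or pericyte-like cells, with 32.5 CPM, were the class outside the immune cells that held most Trpv2 per UMI. General capillary-like cells had 1.95 CPM. No Trpv2 UMI was counted in alveolar type I-like cells, where 3 counts, the limit taken here for a count of 0, would be 2.01 CPM. In the whole libraries, Trpv2 was at 29.0 and 23.5 CPM in young and 30.1 and 33.9 CPM in aged mice, with ratios of 0.811 and 1.13. Neutrophil-like cells, which hold the gene, were 122, 225, 59 and 263 of the retained cells.

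Trpv4, the channel through which stretch and swelling are known to let calcium into lung endothelium and epithelium, had only 434 UMIs in all. General capillary-like cells held 50.9% of them. There it was at 16.4 CPM (87 UMIs) and 5.85 CPM (32 UMIs) in young mice without and with ventilation, and at 13.9 CPM (72 UMIs) and 7.46 CPM (30 UMIs) in aged mice. Both ventilated libraries were below both nonventilated ones, with ratios of 0.357 (0.230 to 0.541) and 0.535 (0.337 to 0.830). The young ratio was past 1.5-fold in 13 of 13 alternatives and the aged ratio in 12. In aerocyte-like cells it was at 5.61, 21.4, 18.3 and 25.5 CPM, from 8, 24, 16 and 23 UMIs, so the young nonventilated library was low. The young ratio was 3.82 (1.66 to 9.84) and the aged ratio 1.39 (0.704 to 2.82). The direction in young mice was thus opposite in the capillary classes, a difference that was not tested.

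The highest level of Trpv4 was in lymphatic endothelial-like cells, at 28.0 CPM from 26 UMIs, and the range over libraries overlapped with that of aerocyte-like cells. Among alveolar type I and II-like cells all 8 Trpv4 UMIs were in the aged nonventilated library. Smooth muscle or pericyte-like cells had 0 UMIs, for which the same limit of 3 counts is 0.659 CPM.

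Tmem63b, a channel of the OSCA/TMEM63 family known from alveolar epithelium, was highest in alveolar type I-like cells, at 324.1, 238.8, 359.8 and 150.6 CPM. Both ventilated libraries were below both nonventilated ones. The ratio after ventilation was 0.737 (0.565 to 0.962) in young and 0.419 (0.270 to 0.627) in aged mice, from 28 UMIs in 14 cells in the aged ventilated library. Piezo1 was thus higher and Tmem63b lower in the same cells after ventilation at both ages, with the aged interval of Piezo1 holding 1. The alveolar type I and II-like class, whose cells were shallow, had 113.3, 102.8, 119.4 and 96.0 CPM of Tmem63b, with both intervals of the ratio holding 1. Markers of secretory airway cells in this class summed to 10974 and 14283 CPM in aged mice without and with ventilation. They summed to 5729 CPM in the young ventilated library and were lowest in the young nonventilated library. Their part was not tested. Alveolar type II-like cells of the finer clustering stood at 84.2 CPM. Nonclassical monocyte-like cells had ratios of 0.817 (0.514 to 1.27) and 0.514 (0.330 to 0.778), and general capillary-like cells 0.818 (0.651 to 1.03) and 0.671 (0.517 to 0.867).

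Tmem63a, the paralog of Tmem63b, was highest in lymphatic endothelial-like and general capillary-like cells. General capillary-like cells held 53.9% of its UMIs, at 69.0, 58.0, 63.1 and 60.7 CPM, and the ratios after ventilation were 0.840 (0.721 to 0.979) and 0.961 (0.811 to 1.14). Lymphatic endothelial-like cells had 68.9 CPM over all libraries, which overlapped with general capillary-like cells. Every other class of the main clustering was at 27.7 CPM or less. Aerocyte-like cells, also endothelial, were at 24.7 CPM, below the level over all retained cells. In aerocyte-like cells the aged-to-young ratio without ventilation was 2.02 (1.16 to 3.57), from 31 and 25 UMIs.

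The genes whose level over 62 sums of a class and a library was most like that of each channel were named from 13710 genes. The sums share libraries and cell classes, so the correlation coefficients (Pearson r of log2(CPM + 10)) mostly follow the class of the cells and are descriptions. For Piezo2 they were Shank3 (0.958), Ramp2 (0.951) and Egfl7 (0.951), of which the last is a gene secreted by endothelial cells. Trpc6 was followed by Trim71, Agtr1a (the angiotensin II receptor) and Adcy8 (an adenylyl cyclase), each at 0.983. Trpv2 was followed by Rassf5 (0.877), Sla (0.869) and Cyth4 (0.861), and Tmem63b by Gprc5a (0.854), Ocln (0.843), which codes for the tight junction protein occludin, and Plb1 (0.838). Trpv4 had Stab1 (0.833), Gnat1 (0.759) and Plau (0.757). For Piezo1 the highest values were lower, with Katnbl1 (0.755), Mdfic (0.755) and Clock (0.751). Mdfic codes for a protein known to bind Piezo channels. For Tmem63a they were Mmrn2 (0.731), Nhsl1 (0.731) and Ddx17 (0.721). Between the channels, Piezo2 and Trpv4 had 0.606, Piezo1 and Tmem63b 0.514, and Piezo1 and Piezo2 0.212.

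Lists of other genes of mechanical signaling were counted in the same way. Besides the 4 genes of each list with most UMIs, genes past 1.5-fold the same way at both ages were named. For the latter, agreement between the ages follows from that choice. Of 28 other channels linked to stretch, 17 had 20 UMIs over all retained cells in young mice, of which 2 were higher and 8 lower after ventilation. In aged mice 1 was higher and 7 were lower of 18. The median log2 ratio of the list was −0.51 in young and −0.37 in aged mice, against −0.25 and −0.19 over all genes, of which 12.2% were higher and 32.1% lower in young mice and 8.57% and 24.5% in aged mice. Lrrc8a, a subunit of the volume-regulated anion channel, was higher at both ages, with ratios of 1.62 and 1.83 over all cells and of 2.04 (1.70 to 2.45) and 3.20 (2.47 to 4.19) in aerocyte-like cells. Pkd1, which codes for polycystin-1, had 0.609 and 0.651 in aerocyte-like cells. In general capillary-like cells, Trpm4, a sodium-permeable channel opened by calcium, had 0.289 and 0.435.

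Of 11 partners and regulators of Piezo channels, 7 had 20 UMIs in aerocyte-like cells of young mice, with 0 higher and 3 lower, and 6 in aged mice, with 0 higher and 2 lower. Over all genes of this class, 14.7% were higher and 37.4% lower in young mice and 13% and 25.7% in aged mice. Gnaq and Gna11, the G protein subunits that act with endothelial mechanosensors, were lower at both ages. Gnaq went with Piezo2 in aerocyte-like cells, at 748.8 and 268.9 CPM in young and 725.7 and 298.8 CPM in aged mice, with ratios of 0.359 and 0.412. Unlike Piezo2, it was also lower in general capillary-like cells, with ratios of 0.507 and 0.517.

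Among 12 genes of the calcium and calcineurin response, 4 were higher and 1 lower of 9 in alveolar type I-like cells of young mice, and 3 higher and 0 lower of 7 in aged mice. All genes of this class had 21.8% higher and 21.5% lower in young mice and 14.3% and 21.8% in aged mice. Camk2d, a calcium-dependent kinase, had ratios of 3.83 (2.98 to 4.98) and 3.65 (2.74 to 4.88) there, and Orai1, the pore of the store-operated calcium channel, 3.37 (2.06 to 5.77) and 3.66 (1.97 to 6.93). In general capillary-like cells, Rcan1, a feedback inhibitor of calcineurin, had 2.53 (2.31 to 2.77) and 2.05 (1.85 to 2.27).

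Of 14 targets and partners of YAP and TAZ, transcription coactivators that respond to cell tension, 6 were higher and 3 lower of 10 in general capillary-like cells of young mice, and 4 higher and 3 lower of 9 in aged mice. For all genes of this class the shares were 12.7% higher and 35.4% lower in young mice and 10.7% and 26.1% in aged mice. The medians were 1.19 and 0.54 on the log2 scale. Ccn2 had ratios of 3.27 and 3.74 in these cells and of 5.02 and 3.26 in aerocyte-like cells, and Ccn1 had 3.30 and 2.34 in general capillary-like cells. Lats2 and Amotl2, also members of this list of targets and known to restrain YAP, were lower at both ages in both capillary classes. Their direction was thus opposite to that of Ccn2.

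Of 12 transcripts that respond to shear or stretch, 7 of 7 measured in alveolar type I-like cells of young mice were higher after ventilation, with a median log2 ratio of 2.31, and 3 of 7 in aged mice, with a median of 0.38. The shares higher over all genes of this class were 21.8% and 14.3%. Fos, an immediate early gene, had ratios of 6.34 (5.09 to 7.98) in young and 1.73 (1.22 to 2.46) in aged mice there, so the larger ratio was in young mice, as for Piezo1. Klf2 and Klf4, the transcription factors of endothelium under laminar flow, were lower at both ages. Klf2 had ratios of 0.237 and 0.322 in aerocyte-like and 0.148 and 0.269 in general capillary-like cells, and Klf4 had 0.191 and 0.395 in aerocyte-like and 0.253 and 0.427 in general capillary-like cells. In the latter class Piezo2 had ratios near 1, while Piezo1 and Trpv4 had intervals below 1 at both ages. A link of the channels with Klf2 and Klf4 was not tested.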

How the data were processed

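Lung cells of 4 groups (young and aged, nonventilated and ventilated) were profiled by droplet-based 3′ scRNA-Seq, 1 library of 3 pooled mice per group. The authors aligned reads to mm10 with Cell Ranger (7.0.0 in the submitters' processing notes) and deposited whole-number UMI counts for every gene in every barcode, not normalized. The members and gene lists were chosen with earlier results of these data known.

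From these counts, barcodes were retained if they held 200 to 5000 genes, no more than 10% mitochondrial UMIs and, among those left, no more UMIs than the 93rd percentile (21021). They were 9514 in all, fewer than the study kept. No doublets were removed in the main analysis. Counts were log-normalized and clustered (Seurat 5.3.0, R 4.3.3; 2000 variable genes without the 7 channels, 37 principal components, resolution 0.18, and 0.5 for finer classes). Clusters were named from marker lists. A class needed 10 cells in a library, and this rule, the naming rule and the joint names were set after the clusters were seen. Ratios were taken from UMI sums per class and library, and log2 ratios after 1 UMI was added to each sum. Genes named beside the 7 channels were the 4 of each list with most UMIs, those past 1.5-fold the same way at both ages, and the 3 most correlated with each channel. Not all of these are printed. Intervals and sums were computed in Python 3.11.15 (pandas 2.3.3, scipy 1.17.1, numpy 2.4.6, Scrublet in scanpy 1.11.5, and matplotlib 3.10.9) and tested on simulated data. Class sums limit the precision, since counting intervals widen as they shrink. Alternatives varied the cell filter, resolution, scaling, weighting of cells, depth, background, UMI minimum and doublets. RefSeq and GENCODE supplied sequences and positions, the latter matched by identifier for 99.8% of genes. Protein sequences were not used here.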

Additional observations from a re-analysis of the deposited data

Results flagged for a closer look

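For 5 pairs of a channel and a set of cells of the main clustering, the ratio after ventilation lay on opposite sides of 1 in young and aged mice. Neither counting interval held 1. At the finer clustering the same was seen for Piezo1 in classical monocyte-like cells and Trpc6 in pericyte-like cells. Their aged minus young differences of the log2 ratio were −1.67 and −0.33. The difference between the ages was not tested, since each group is 1 library. Over all retained cells, the aged minus young difference of the log2 ratio was −0.87 for Piezo1, 0.47 for Trpv2 and −0.37 for Trpc6. For Piezo1 it was −1.24 in alveolar macrophage-like cells and −1.66 in interstitial macrophage or dendritic-like cells. After thinning to 2000 UMIs per cell, the young and aged log2 ratios were 0.19 and −0.14 in the former and 0.44 and 0.01 in the latter. The marker sums that moved in these classes are given with their levels, and their part was not tested. The makeup of the cells captured moved with the values over all retained cells: with the same makeup in every library, Trpc6 was at 67.9 and 108 CPM in young and 84.0 and 94.6 CPM in aged mice without and with ventilation, higher with ventilation at both ages.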

How the results depend on the processing

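Each group was 1 library of pooled mice, so the differences between mice are not known, and many sums held few UMIs. No paired analysis was possible because each group has 1 library and replicate numbers were given in accession order only. Of 68 ratios of a channel past 1.5-fold, 17 stayed past it in every alternative run, of up to 13 each. Over all single ratios and alternatives, 810 values moved by less than counting error, 45 moved by more and 19 changed sign. The 2 alternatives added (the single top cell left out, and ratios relative to the median gene) were chosen after seeing the data.

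Counts of pairs past 1.5-fold were 16, 19, 13 and 17 for ventilation in young mice, ventilation in aged mice, age without ventilation and age with ventilation. Thinning cells to 2000 UMIs gave 6, 7, 4 and 5, where fewer pairs (15, 14, 18 and 13) reached 20 UMIs. For age without ventilation, a limit of 5% mitochondrial UMIs gave 6 and equal weight for each cell gave 8. For age with ventilation, leaving out the top cell gave 11. The total of 65 became 36 with at least 50 UMIs, 187 with no UMI minimum and 21 with a ratio of at least 2.

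The following log2 ratios changed sign, and the cause was not tested. For ventilation in young mice, Trpc6 in fibroblast-like cells was −0.63 without the highest Scrublet scores and −0.25 without the top cell, and Tmem63a in nonclassical monocyte-like cells was 0.22 at 5% mitochondrial UMIs, 0.07 at resolution 0.5 and 0.09 after thinning. For ventilation in aged mice, thinning gave 0.02 for Trpv2 in B or plasma-like cells, 0.10 for Trpv4 in general capillary-like cells, 0.01 for Piezo1 in interstitial macrophage or dendritic-like cells and 0.54 for Piezo2 in smooth muscle or pericyte-like cells. The last was 1.51 without the highest Scrublet scores. At 5% mitochondrial UMIs, Tmem63a in alveolar macrophage-like cells was 0.09 and Tmem63b in classical monocyte-like cells 0.07. For age without ventilation, leaving out the highest Scrublet scores gave −0.50 for Piezo1 in T or natural killer-like cells and −0.94 for Piezo2 in smooth muscle or pericyte-like cells, and thinning gave 0.06 for Trpv2 in T or natural killer-like cells. For age with ventilation, the values were 0.19 for Tmem63a in alveolar type I and II-like cells without the highest Scrublet scores, −0.07 for Tmem63a in classical monocyte-like cells with equal weight for each cell, 0.31 for Trpc6 in fibroblast-like cells at resolution 0.5, and 0.30 for Piezo1 in interstitial macrophage or dendritic-like cells after thinning. At resolution 0.5, 382 and 176 cells of the young and aged ventilated libraries formed an unnamed cluster, against 7 and 0 without ventilation, so the fibroblast-like class of that setting differs.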

Other observations

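Barcodes with over 5000 genes, which the filter leaves out, also held the channels. In these barcodes, Piezo1 was at 105 and 144 CPM in young mice without and with ventilation, and at 110 and 99.8 CPM in aged mice, so the young ventilated library was highest there, whereas the aged nonventilated library was highest among retained cells. Piezo2 was at 112, 93.3, 78.1 and 78.7 CPM in the same order.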
